A study of Schizosaccharomyces pombe with 16 samples.

Results

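Wilmar-A, a wild isolate of the fission yeast *Schizosaccharomyces pombe* and the ancestor of an industrial bioethanol strain (Wilmar-P), was compared after 4 hours without glucose and after 4 hours in glucose. The glucose-starved group held 2 libraries from cells in YES (a rich yeast extract medium) with 3% glycerol as the carbon source, and the glucose group held 2 libraries from cells in YES with 3% glucose. These 4 libraries were taken by their labels from 16 RNA-seq libraries, which also cover Wilmar-A in 3% glycerol with 0.1% glucose (glucose-deficient), Wilmar-P in the same 3 media, and molasses cultures of Wilmar-P and of a laboratory strain. All Wilmar-A cells carry the h90 genotype, so a single strain can switch mating type and mate with itself. They grew in 3% glucose for 4 hours at 32 degrees, were washed, and were moved to the test medium, so the glucose group also went through the wash. No label states that the 2 libraries of a group came from separate cultures, so the spread between them may be technical. Each p-value rests on a spread estimated within the groups of all 16 libraries together.

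Fission yeast prefers glucose. When glucose is present, the cAMP-dependent kinase Pka1 and the repressor Scr1 with its Tup corepressors keep genes for other carbon sources silent (carbon catabolite repression). When glucose runs out, the transcription factor Rst2 takes over at these genes, the stress kinase Sty1 activates the factor Atf1, and TOR (a growth-promoting kinase) becomes less active. Glycerol is used by oxidation, through glycerol dehydrogenase, dihydroxyacetone kinase and the respiratory chain. Ribosome production is a major expense of a growing yeast and is tuned to nutrient supply. Starved fission yeast of opposite mating types can also mate and form spores.

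The starved libraries held 13866326 and 13337212 counts, and the glucose libraries 17003241 and 14273798. The galactose genes gal1, gal7 and gal10, whose near absence marks the Wilmar background, had at most 1 count in any of the 4 libraries. Expression is given as CPM, each count scaled to the library total after edgeR's TMM correction, in the order replicate 1 and replicate 2. A coding gene was called higher or lower when its log2 fold change (starved over glucose) was beyond 1 in size and its adjusted p was below 0.05 in edgeR's quasi-likelihood test. One library stood apart. Glucose replicate 1 is labelled stranded, yet long non-coding genes took 8.65% of its counts, against at most 2.24% in the other 12 libraries labelled stranded and 8.34% to 8.49% in the 3 labelled unstranded. Its counts exceeded those of glucose replicate 2 more than 4-fold in 174 of 2960 coding genes that overlap a gene on the opposite strand, and in 2 of the 2115 that do not. The starved replicates were more than 4-fold apart in 6 and 4 genes of these classes. Results are therefore given from all libraries and from a fit without glucose replicate 1. That fit has 1 glucose library, assumed to vary like the other groups.

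**Figure D1:**
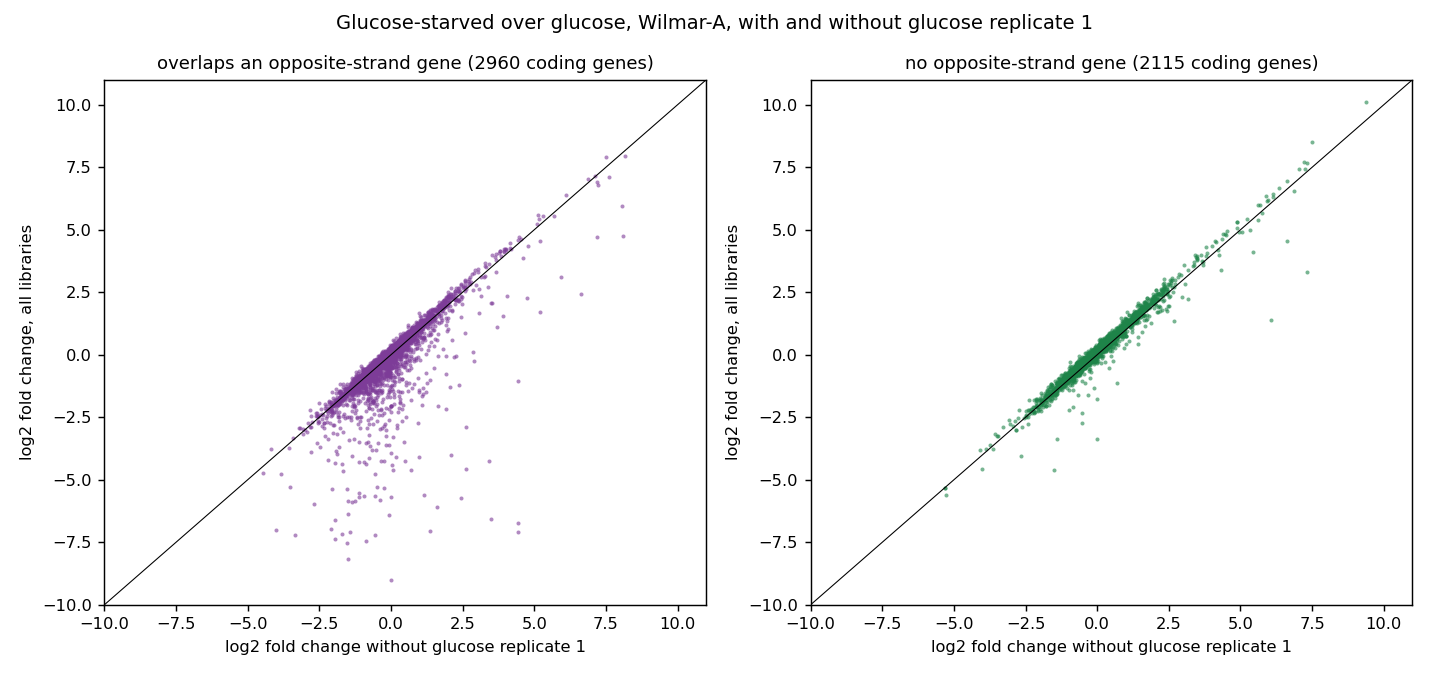
Log2 fold change of each tested coding gene, starved over glucose, from all libraries (vertical axis) against the value without glucose replicate 1 (horizontal axis), for genes that overlap an opposite-strand gene (left) and genes that do not (right); the line marks equal values. Points far below the line, whose fall is larger with replicate 1, are mostly among the 2960 genes on the left.

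Of 5075 coding genes tested, 822 rose in the starved libraries (16.2%) and 944 fell (18.6%). Without glucose replicate 1, 714 rose and 765 fell. When that library was modelled as unstranded, 799 rose and 745 fell. In all 3 fits 671 genes rose and 661 fell, which is 81.6% of the first set of rising genes and 70.0% of the falling ones. The doubt lies mainly in the falls. Of the 2960 genes overlapping an opposite-strand gene 658 fell and 399 rose, whereas of the 2115 others 286 fell and 423 rose. Of the 944 falling genes, 123 were over 4-fold higher in glucose replicate 1 than in replicate 2, all but 1 of these 123 overlap an opposite-strand gene, and 18 of the 123 fell without that library. In 1720 of the 1766 called genes the starved and glucose CPM did not overlap, as was so for 75.7% of all tested coding genes. Changes over 4-fold that held in all 3 fits were found for 307 rising and 160 falling genes. The median log2 fold change over all tested coding genes was -0.11, and -0.03 with DESeq2's size factors.

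Among the gene lists, rises were most frequent in the TCA cycle (16 of 19 tested members), trehalose metabolism (4 of 5), glucose-repressed sugar enzymes (6 of 8), autophagy (18 of 25) and the cAMP pathway (8 of 12). Fewer of the glucose-repressed sugar enzymes were called higher without glucose replicate 1. Falls were most frequent in ribosome biogenesis (73 of 99), RNA polymerase I (8 of 16), meiosis and sporulation (14 of 31, but 3 without glucose replicate 1) and mating (12 of 28). They were also frequent in copper and iron (7 of 20), cell separation (7 of 21), nucleotide synthesis (6 of 18) and tRNA synthetases (12 of 36).

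**Figure D2:**
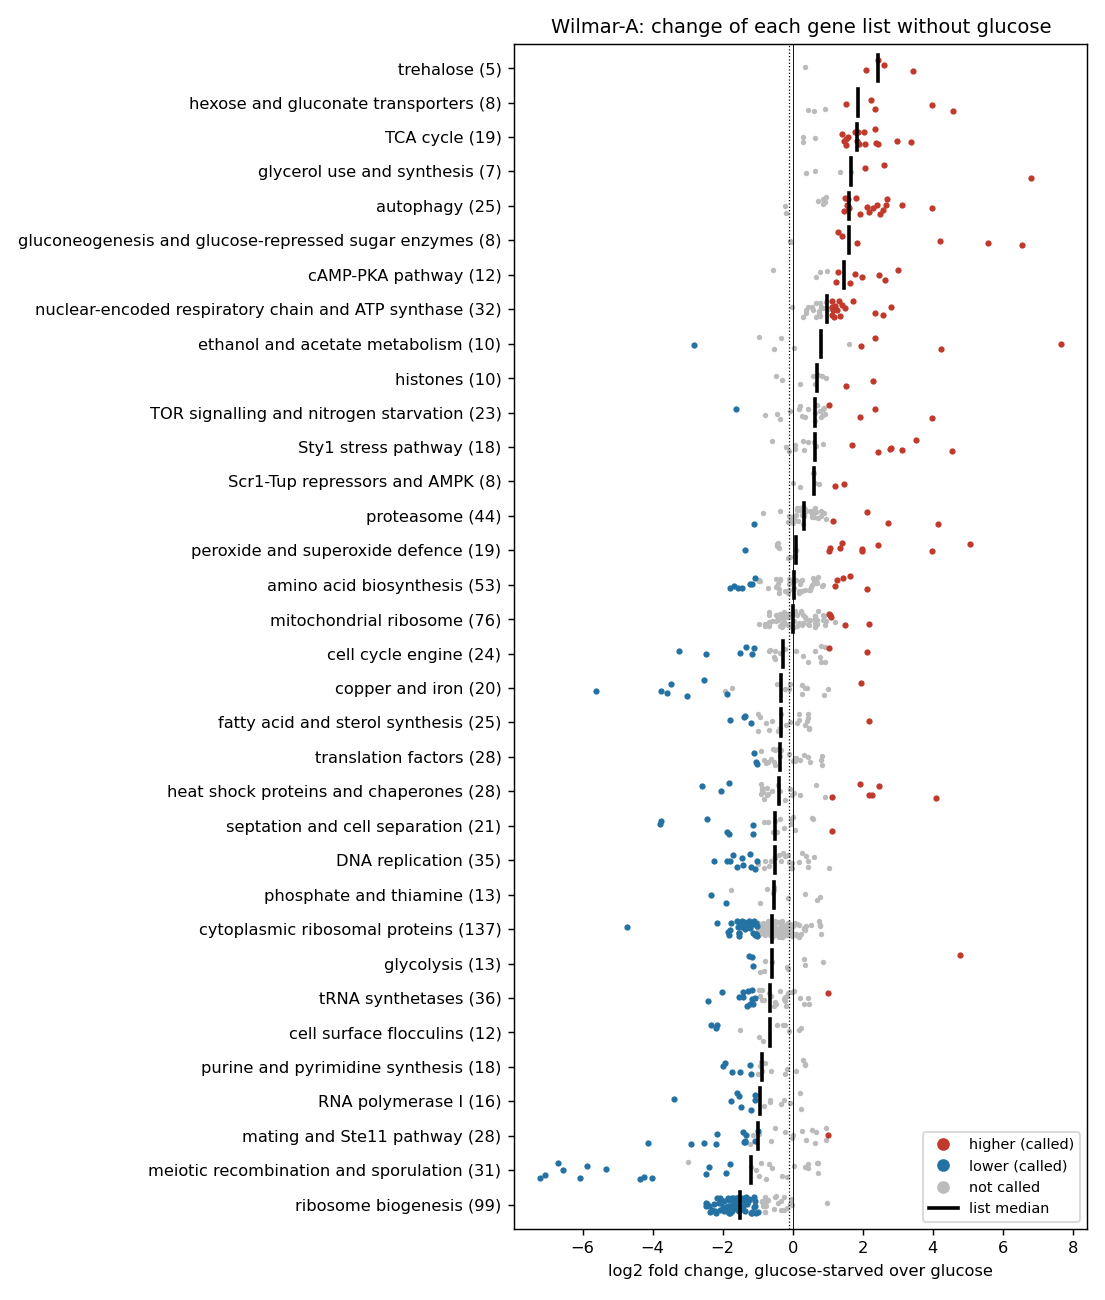
Log2 fold change (starved over glucose) of every tested member of 34 gene lists, with red points for members called higher, blue for members called lower and grey for the rest; the thick bar is the list median, the dotted line the median over all tested coding genes, and the number in brackets the members tested. Trehalose lies at the top with a median of 2.43 and ribosome biogenesis at the bottom with -1.52.

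Among coding genes called in all 3 fits, the 10 with the largest rises included a pyruvate decarboxylase, a protein repair enzyme and several genes of unknown role. hry1, which encodes a protein with a cation-binding HHE domain, had 623 and 2280 CPM in the starved libraries, against 0.556 and 2.14 CPM in glucose. Its log2 fold change was 10.11 ± 1.11 (SE; adjusted p = 9.46e-05). SPAC186.02c, annotated as a hydroxyacid dehydrogenase, had 87.1 and 453 CPM when starved, against 0.139 and 1.45 CPM. Both genes were practically silent in glucose, and their starved replicates differed widely. pdc201, a pyruvate decarboxylase, had 5819 and 6382 CPM when starved, against 21.8 and 38 CPM in glucose (log2 fold change 7.67 ± 0.54, SE; adjusted p = 1.39e-05). pcm2, a methyltransferase that repairs damaged aspartate residues in proteins, had 197 and 411 CPM when starved, against 1.53 and 1.95 CPM. The others were mug108, SPAC869.09 (a Con-6 family protein), prl65, SPCC338.18, SPBC3H7.08c and cum1, with mug108 highest of these at 7.94 and SPAC869.09 at 7.90. The groups did not overlap in any of the 10, as the choice required, and without glucose replicate 1 the 10 values ran from 7.05 to 9.37.

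Genes known to be repressed by glucose rose. fbp1, fructose-1,6-bisphosphatase, the gluconeogenic enzyme used as the classical reporter of glucose repression, had 384 and 799 CPM in the starved libraries, against 13.5 and 11.3 CPM in glucose. That is a log2 fold change of 5.57 ± 0.81 (SE; adjusted p = 0.000432). It lies at chromosome II, 197660 to 199474 (ASM294v2, minus strand). inv1, the secreted invertase that splits sucrose, had 4736 and 2371 CPM when starved, against 45.5 and 30.4 CPM (6.55 ± 1.13, SE; adjusted p = 0.00117). agl1, a secreted maltase, had 364 and 235 CPM, against 16.4 and 16.1 CPM. Both starved libraries were far above both glucose libraries for all 3 genes. The list of glucose-repressed sugar enzymes held these 3, the glucosidases mal1 and gto2, and idn1, gnd1 and zwf1. The last are a gluconokinase, phosphogluconate dehydrogenase and glucose-6-phosphate dehydrogenase, so fbp1 was its only gluconeogenic enzyme. Of the 8 tested members 6 rose and none fell, with a median of 1.62. Without glucose replicate 1 fewer members were called higher, and the median was 1.33.

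Hexose and gluconate transporters rose in part. ght3, a gluconate transporter, had 165 and 97 CPM in the starved libraries, against 7.46 and 9.39 CPM in glucose (log2 fold change 3.96 ± 0.59, SE; adjusted p = 0.000473). ght4 had 177 and 64.3 CPM when starved, against 26.1 and 25.6 CPM. ght6 rose as well, at 74.6 and 44.3 CPM against 19.6 and 3.59 CPM. ght5, the high-affinity transporter that carries most glucose into the cell, had 3505 and 1965 CPM when starved, against 2656 and 1368 CPM. Its ranges overlapped and its log2 fold change of 0.44 ± 0.45 (SE) did not pass the test (adjusted p = 0.429). ght7 was at 1 count or none in the glucose libraries and at 0.807 and 0.815 CPM when starved, at least 4.94-fold higher than the floor of 3 counts per library, and was not called without glucose replicate 1. In all 5 of 8 members rose and none fell, with a median of 1.87. Without glucose replicate 1 the 4 that rose were ght3, ght4, ght6 and ght8.

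The pathway that brings glycerol into metabolism rose at its entry. gld1, glycerol dehydrogenase, had 922 and 960.3 CPM in the starved libraries, against 10.7 and 6.24 CPM in glucose (6.79 ± 0.78, SE; adjusted p = 0.000111). dak1, the dihydroxyacetone kinase that takes its product onward, had 1052 and 1102 CPM, against 203 and 312 CPM. gpd1, which makes glycerol 3-phosphate and is known as an osmotic stress gene, had 8315 and 10476 CPM, against 869 and 2235 CPM. gut2, the mitochondrial glycerol-3-phosphate dehydrogenase, had 98.4 and 121 CPM when starved, against 40.5 and 29 CPM, a difference that did not pass the test (adjusted p = 0.119). All 7 members of the list had a log2 fold change above 0, and gld1, dak1 and gpd1 were called, with and without glucose replicate 1.

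In glycolysis 3 of 13 tested genes fell (23.1%, near the 18.6% of all tested coding genes), with a list median of -0.60, and 5 fell without glucose replicate 1 (median -0.95). gpm1, phosphoglycerate mutase, had 3629 and 2585 CPM in the starved libraries, against 5230 and 9681 CPM in glucose (-1.26 ± 0.38, SE; adjusted p = 0.0197). pyk1, pyruvate kinase, had 1783 and 1446 CPM, against 2897 and 4194 CPM, and hxk2, a hexokinase, 526 and 430.5 CPM, against 1025 and 1105 CPM. fba1, the aldolase that gluconeogenesis also uses, had 7413 and 6786 CPM when starved, against 4181 and 7165 CPM, and its groups overlapped. tdh1, glyceraldehyde-3-phosphate dehydrogenase, had 1720 and 1226 CPM, against 1937 and 3315 CPM (adjusted p = 0.0837). It passed the test at -1.27 with glucose replicate 1 modelled as unstranded, and its value without that library was -1.18. The single member called higher was eno102, an enolase copy with 0.242 and 4.44 CPM when starved, against 0.139 and 0 CPM, and it was not called without glucose replicate 1.

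A pair of pyruvate decarboxylase genes moved in opposite directions. pdc101 had 537 and 428 CPM in the starved libraries, against 3187 and 3704 CPM in glucose (-2.84 ± 0.35, SE; adjusted p = 0.000163), while pdc201 rose as given above. For both genes the gap between the groups was far wider than that between replicates. atd1, an aldehyde dehydrogenase, had 2989 and 2795 CPM when starved, against 588 and 912 CPM, and ach1, acetyl-CoA hydrolase, had 474 and 236 CPM, against 49.7 and 88.9 CPM. adh1, the alcohol dehydrogenase of ethanol production, had 3616 and 1947 CPM, against 3949 and 6841 CPM (-0.96 ± 0.37, SE; adjusted p = 0.0552). It passed the test at -1.30 without glucose replicate 1, and at -1.26 with that library modelled as unstranded. In the list of ethanol and acetate genes 4 of 10 rose (40%, against 16.2% of all tested coding genes) and 1 fell (10%, against 18.6%), with a median of 0.82. With glucose replicate 1 modelled as unstranded 4 rose and 2 fell. Without that library fewer were called higher, and the median was 0.79.

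The TCA cycle rose almost as a whole. Of 19 tested members 16 were called higher with all libraries and also without glucose replicate 1, none fell, and the median log2 fold change was 1.84. mdh1, malate dehydrogenase, had 1314 and 1695 CPM in the starved libraries, against 122 and 167 CPM in glucose (3.38 ± 0.49, SE; adjusted p = 0.000419). cit1, citrate synthase, had 1758 and 1561 CPM, against 148 and 274 CPM. aco1, aconitase, had 1729 and 1786 CPM, against 299 and 352 CPM. The starved replicates of these enzymes lay close together and well above the glucose libraries.

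Nuclear-encoded respiratory chain genes also rose, less evenly. sdh2, the iron-sulfur subunit of succinate dehydrogenase, which serves both the cycle and the chain, had 507 and 609.9 CPM when starved, against 97.3 and 118 CPM in glucose (2.37 ± 0.26, SE; adjusted p = 9.52e-05). ndi1, an NADH dehydrogenase, had 876 and 949 CPM, against 96.4 and 165 CPM. cyc1, cytochrome c, had 2873 and 2804 CPM, against 360.2 and 583 CPM. rip1, the Rieske protein of complex III, had 1930 and 1814 CPM, against 284 and 456 CPM. Among 32 members of the chain and ATP synthase 31 had a log2 fold change above 0, with a median of 0.97, and 15 passed the test. That count depended on one library: without glucose replicate 1 it was 5, with a median of 0.69, and cox4 and atp1, of cytochrome oxidase and ATP synthase, were among those lost (0.74 and 1.30, adjusted p = 0.0957 and 0.0604). Genes of the mitochondrial genome reached at most 73 counts in these 4 libraries and were not assessed.

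Trehalose, a sugar that protects proteins and membranes in resting cells, had its enzymes raised on both the making and the breaking side. ntp1, the trehalase, had 815 and 1196 CPM in the starved libraries, against 63.6 and 121 CPM in glucose (3.44 ± 0.38, SE; adjusted p = 9.64e-05). tps1, which makes trehalose 6-phosphate, had 1591 and 2011 CPM, against 164 and 428 CPM, and tpp1, the phosphatase that follows, 576 and 768 CPM, against 151 and 164 CPM. With tps3 these were 4 of 5 tested members, with a median of 2.43, and the same number rose without glucose replicate 1.

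In the Sty1 pathway the kinase gene itself was not called, whereas genes for its downstream factors and for a phosphatase that inhibits it rose. sty1 had 434 and 526 CPM in the starved libraries, against 299.8 and 414 CPM in glucose (0.43 ± 0.25, SE; adjusted p = 0.179). atf1, its main transcription factor, had 414 and 472 CPM, against 49.4 and 76.7 CPM (2.81 ± 0.29, SE; adjusted p = 7.65e-05). pcr1, the partner of Atf1, had 296 and 389.6 CPM, against 41.6 and 57.8 CPM. pyp2, a tyrosine phosphatase that switches Sty1 off, had 407 and 969 CPM, against 41 and 18.2 CPM (4.54 ± 0.74, SE). srk1, a kinase activated by Sty1, had 459.6 and 791 CPM, against 47.2 and 61.2 CPM. In all 7 of 18 members rose, 11 were not called, none fell, and the counts were the same without glucose replicate 1.

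Genes that detoxify peroxide and superoxide rose in part. ctt1, catalase, had 1076 and 2443 CPM in the starved libraries, against 46.9 and 59 CPM in glucose (5.05 ± 0.72, SE; adjusted p = 0.000383). gpx1, glutathione peroxidase, had 2091 and 2791 CPM, against 99 and 210.2 CPM, and sod2, the manganese superoxide dismutase, 969 and 1347 CPM, against 153 and 272 CPM. trx2, a thioredoxin, was lower at 32.2 and 34.1 CPM, against 85.6 and 86.4 CPM. Of 19 genes of peroxide and superoxide defence 9 rose and 1 fell, and without glucose replicate 1 there were 5 that rose and 2 that fell, and the list median was 0.09.

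Most chaperones were not called. Of 28 members 6 rose (21.4%, against 16.2% of all tested coding genes) and 3 fell (10.7%, against 18.6%), while 5 rose and 7 fell without glucose replicate 1. hsp9, a small heat shock protein, had 20470 and 28900 CPM in the starved libraries, against 1195 and 1730 CPM in glucose (4.08 ± 0.38, SE; adjusted p = 4.45e-05). hsp104, the disaggregase, had 193 and 211 CPM, against 48.8 and 39.9 CPM, and hsp16 899 and 656 CPM, against 103 and 179 CPM. By contrast hsp90, the abundant chaperone of kinases and receptors, had 538 and 449 CPM when starved, against 1883 and 4119 CPM (-2.60 ± 0.52, SE; adjusted p = 0.00278). ssa2, an Hsp70, had 907 and 839.9 CPM, against 1699 and 4472 CPM, and mas5, its DnaJ partner, 188 and 169.7 CPM, against 612 and 861 CPM. The glucose replicates of hsp90 and ssa2 lay far apart, although both were above both starved libraries.

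Atf1 binds the CRE site, of which TGACGT is the core. The promoter windows of ctt1, atf1 and gpd1 are shown because these stress genes rose in all 3 fits and carry this core within 150 bases before the annotated start. They were chosen after their values were seen. Each line gives the 150 bases before the gene's annotated start, 5′ to 3′ on the gene's strand, with every CRE core, on either strand, in capitals.
ctt1: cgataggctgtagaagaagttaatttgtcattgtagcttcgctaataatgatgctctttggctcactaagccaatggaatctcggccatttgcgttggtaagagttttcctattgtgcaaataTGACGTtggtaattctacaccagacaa
atf1: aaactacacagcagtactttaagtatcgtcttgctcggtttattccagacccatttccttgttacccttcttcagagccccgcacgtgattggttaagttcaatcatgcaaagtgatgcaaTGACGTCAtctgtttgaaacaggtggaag
gpd1: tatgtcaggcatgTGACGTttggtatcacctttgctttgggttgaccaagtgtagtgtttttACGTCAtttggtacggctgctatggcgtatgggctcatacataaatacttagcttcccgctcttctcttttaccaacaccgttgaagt
The windows lie at chrIII:58866-59015 (minus strand), chrII:1546044-1546193 (plus strand) and chrII:4035430-4035579 (plus strand). In atf1 the forward and reverse cores overlap in a palindrome. In ctt1 the core begins 27 bases before the start, and in gpd1 the 2 cores begin 137 and 88 bases before it. The gene starts are those of the deposited table (ASM294v2), and the bases were read at those positions from RefSeq (ASM294v3). Start and end were the same in both for 279 of 5107 coding genes.

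Across the genome the same core was searched on both strands in a window of 250 bases before to 50 bases after each annotated start. It was present in 5.80% of 5106 coding windows. Among the genes that rose in all 3 fits it was present in 97 of 671 (14.5%), and among those that rose over 4-fold in 62 of 307 (20.2%). Among the genes that fell in all 3 fits the share was 4.84%. Of the 18 windows of the Sty1 list 5 held it. The stress element STREP (CCCCTC), bound by Rst2, was present in 2.06% of all windows, 2.83% of the genes that rose and 1.82% of those that fell. These shares describe letters in a window and were not tested.

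**Figure D3:**
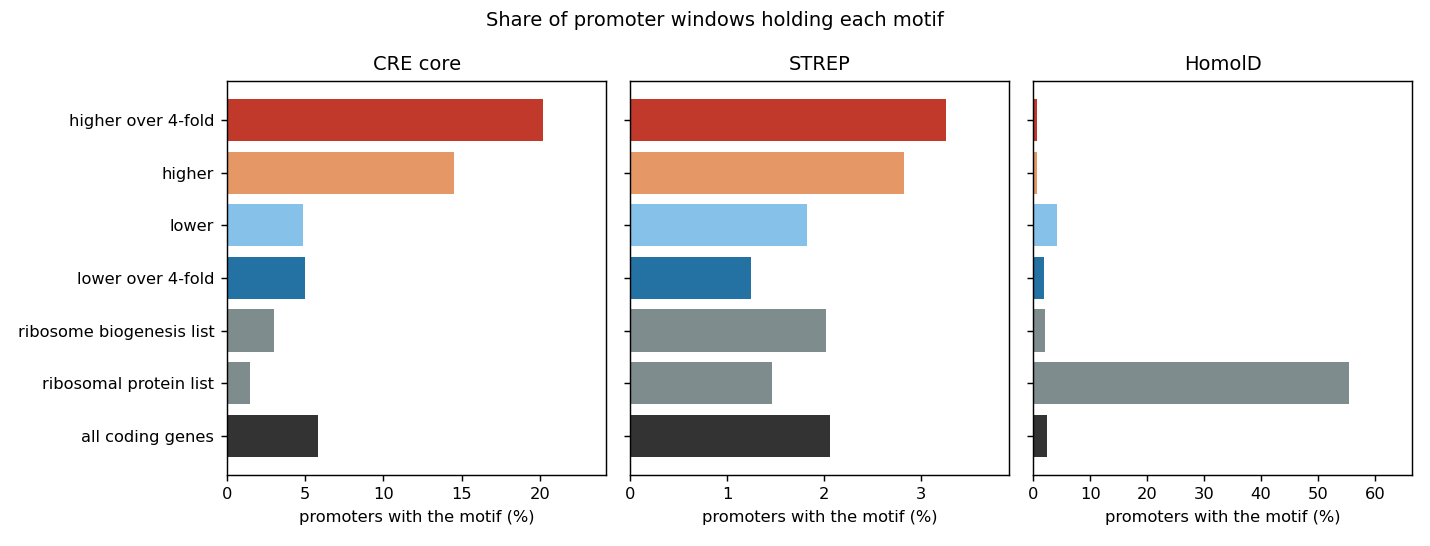
Share of promoter windows (250 bases before to 50 after the annotated start) that hold the CRE core, STREP or HomolD on either strand, for genes that rose or fell in all 3 fits, for the subsets over 4-fold, for ribosome biogenesis and cytoplasmic ribosomal protein genes, and for all coding genes. The CRE core stands at 20.2% in genes that rose over 4-fold and HomolD at 55.5% in ribosomal protein genes.

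Autophagy, by which cells digest their own contents in the vacuole, rose broadly. As background, 16.2% of all tested coding genes were called higher, and 75.7% had starved and glucose values that did not overlap. Of 25 tested genes 18 were called higher with and without glucose replicate 1, none fell, the median was 1.62, and all 25 had starved and glucose values that did not overlap. isp6, a vacuolar protease, had 1612 and 2283 CPM in the starved libraries, against 91.3 and 157 CPM in glucose (3.97 ± 0.38, SE; adjusted p = 5.09e-05). atg8, the ubiquitin-like protein that builds the autophagosome membrane, had 212 and 287 CPM, against 32.2 and 47.1 CPM. atg13 and atg101, of the kinase complex that starts the process, had 149 and 185 CPM against 27.3 and 31.8 CPM, and 30.5 and 56 CPM against 5.51 and 4.47 CPM.

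Among 12 genes of the cAMP pathway 8 rose with and without glucose replicate 1, with a median of 1.47. pka1, the catalytic subunit of protein kinase A, had 727 and 834 CPM in the starved libraries, against 79.9 and 116.3 CPM in glucose (2.99 ± 0.28, SE; adjusted p = 4.95e-05). cgs1, its inhibitory subunit, had 39.8 and 50.2 CPM, against 8.2 and 8.25 CPM. git5, the G protein beta subunit of the glucose receptor pathway, had 129.8 and 153 CPM, against 17.5 and 27.7 CPM, and cgs2, the phosphodiesterase that removes cAMP, 136 and 90.1 CPM, against 31.3 and 34.8 CPM. Both the kinase and its inhibitors were clearly apart between the groups. rst2, the activator of glucose-repressed genes, had 378 and 321 CPM, against 115 and 110.1 CPM.

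In the list of repressors and AMP-activated kinase (the energy sensor) 2 of 8 members rose (25%, against 16.2% of all tested coding genes). They were ssp2, the kinase subunit, and amk2, its partner. ssp2 had 176 and 238 CPM in the starved libraries, against 80.7 and 99.3 CPM in glucose. scr1 had 66.1 and 74.1 CPM, against 49.2 and 34.8 CPM, a log2 fold change of 0.74 ± 0.32 (SE; adjusted p = 0.0772). Of 23 genes of TOR signalling and nitrogen starvation 4 rose (17.4%, near the 16.2% of all tested coding genes), 1 fell and 18 were not called. Those that rose included the amino acid permeases per1, with 97.6 and 114 CPM against 20.3 and 21.5 CPM, and put4, with 53.5 and 74.6 CPM against 15.2 and 18.8 CPM. The single fall was in gln1, glutamine synthetase, with 68.2 and 60.2 CPM, against 192 and 201 CPM (-1.61 ± 0.20, SE; adjusted p = 0.000169).

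**Figure D4:**
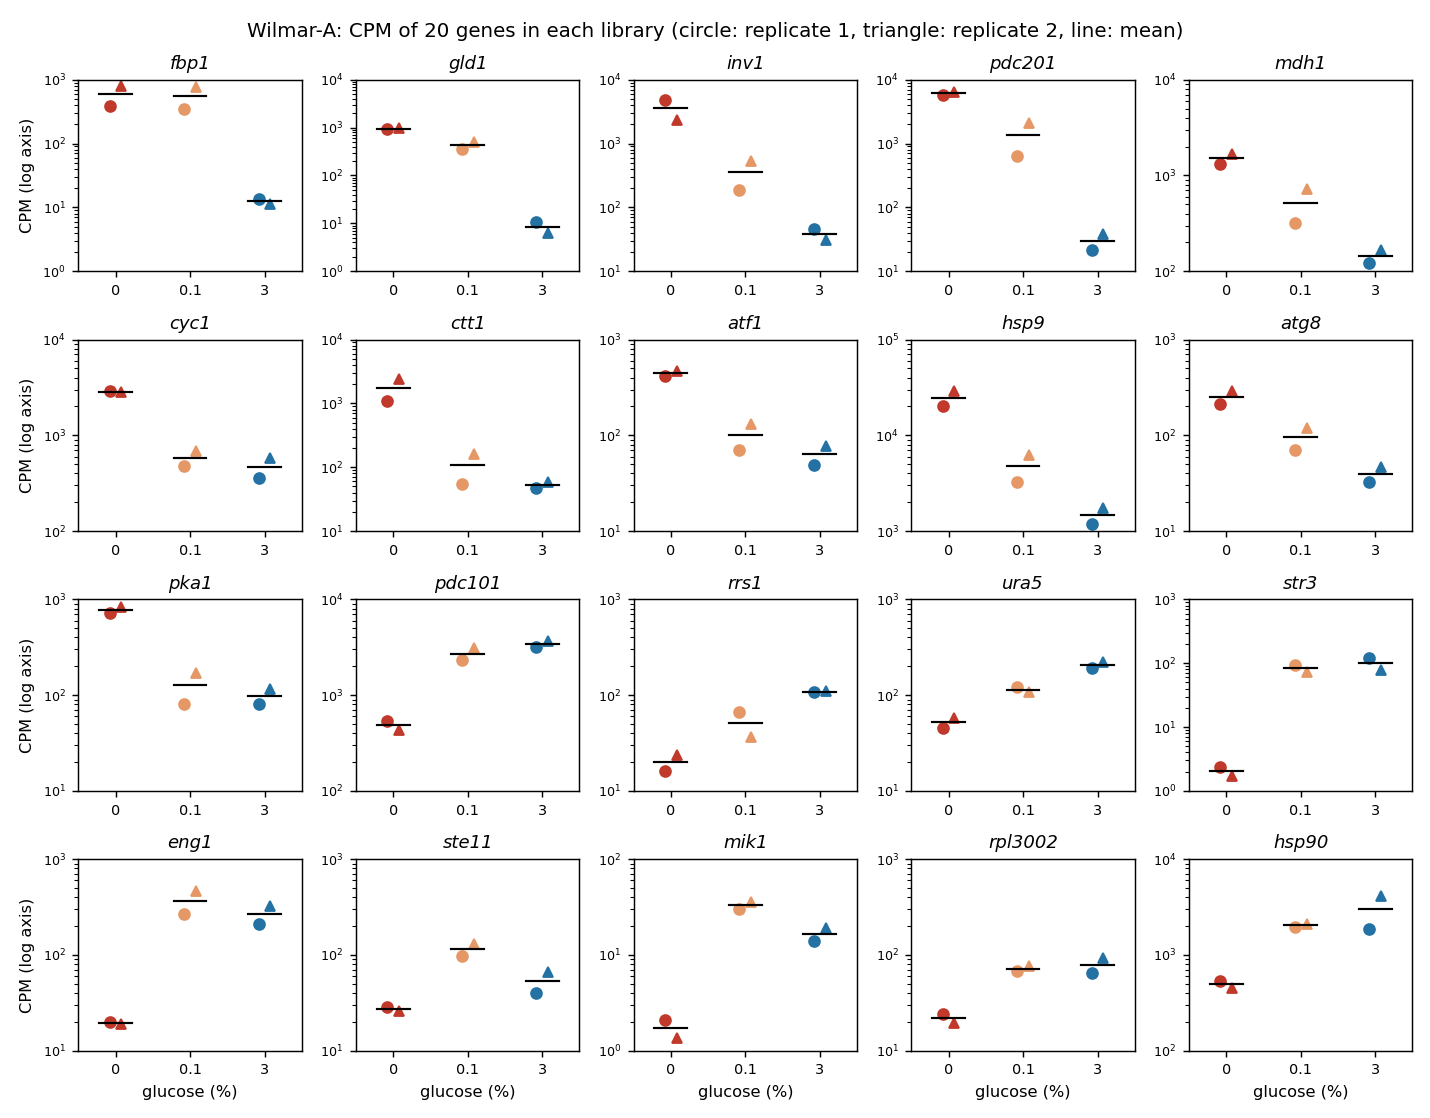
CPM (log axis) of 20 genes in Wilmar-A by glucose in the medium, from 0% (glucose-starved, red) through 0.1% (glucose-deficient, orange) to 3% (glucose, blue), with a circle for replicate 1, a triangle for replicate 2 and a line for the mean. fbp1 is as high at 0.1% as at 0%, while ctt1, atf1 and pka1 at 0.1% lie well below their level at 0%.

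The 10 lowest log2 fold changes among coding genes called in all 3 fits must be read with the strand problem in view. They belonged to mug68, rmi1, fau1, SPBC19G7.04, chl1, str3, nse1, SPBC31F10.17c, grp2 and rpl1603, and 9 of these genes overlap an opposite-strand gene. rmi1, for example, had 4.2 and 4.62 CPM in the starved libraries, against 1264 and 14.4 CPM in glucose, so its -7.18 became -1.72 without glucose replicate 1. fau1 had 1.78 and 1.27 CPM when starved, against 250.3 and 4.28 CPM. mug68 was at 1 count in each starved library, and had 26.3 and 0.945 CPM in glucose. rpl1603, a ribosomal protein gene, kept most of its fall, with 2.5 and 3.53 CPM when starved, against 95.5 and 65.6 CPM in glucose (-4.74, and -4.46 without that library). The only one of the 10 with no opposite-strand gene was str3.

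Among such genes with no opposite-strand gene, the 10 lowest (a set chosen after the values were seen) were str3, mug103, eng1, frp1, SPAC1039.02, fip1, cts2, mik1, exg1 and str1, with log2 fold changes from -5.61 to -3.01. Without glucose replicate 1 their values ran from -5.27 to -2.84. cts2, annotated as a chitinase, had 26.4 and 19 CPM in the starved libraries, against 178 and 255 CPM in glucose. exg1, a cell wall glucanase, had 37.6 and 22.6 CPM, against 187 and 353 CPM. mug103 was at 1 count and none when starved, at least 4.57-fold lower than in glucose, counting 3 counts per library as the floor.

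Genes of iron uptake fell. str3, a carrier that imports iron bound to siderophores, had 2.34 and 1.72 CPM in the starved libraries, against 121 and 78.5 CPM in glucose (-5.61 ± 0.53, SE; adjusted p = 4.71e-05). frp1, the surface reductase, had 16.5 and 7.33 CPM, against 175 and 149.9 CPM. fip1 and fio1, the permease and the copper-dependent oxidase that work as a pair, had 42.5 and 15.1 CPM against 310.4 and 388 CPM, and 28.8 and 19.7 CPM against 117 and 166 CPM. str1 had 173 and 68.8 CPM, against 1081 and 862 CPM. isu1, the scaffold for iron-sulfur clusters, rose instead, with 1020 and 731 CPM, against 190.5 and 265 CPM. Of 20 genes of copper and iron 7 fell and 1 rose, and 6 fell and 1 rose without glucose replicate 1.

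Ribosome production held the largest share of falling genes among the 34 lists tested. Of 99 tested genes of ribosome biogenesis, the factors that process and assemble ribosomal RNA, 73 fell and none rose, against the 18.6% of all tested coding genes that fell. The median was -1.52, 98 of the 99 values were below 0, and 74 fell without glucose replicate 1. utp4, of the complex that processes the small-subunit RNA, had 32 and 35.9 CPM in the starved libraries, against 169.5 and 189 CPM in glucose (-2.40 ± 0.21, SE; adjusted p = 3.62e-05). rrs1, a biogenesis factor, had 16.2 and 23.5 CPM, against 108 and 109 CPM, and tsr1 28.1 and 28.4 CPM, against 136 and 132 CPM. The lowest value in the list, -2.48 for shq1, was -1.09 without glucose replicate 1.

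RNA polymerase I, which transcribes the ribosomal RNA genes, followed. nuc1, its largest subunit, had 50.4 and 65.6 CPM in the starved libraries, against 188 and 162 CPM in glucose (-1.59 ± 0.30, SE; adjusted p = 0.00192). rpa43, another subunit, had 21.9 and 26.8 CPM, against 80.8 and 83.8 CPM. The largest fall was in rpa34, with 5.08 and 4.53 CPM, against 79 and 21.7 CPM, and its -3.39 became -2.18 without glucose replicate 1. Of 16 genes of the polymerase and its initiation factors 8 fell with all libraries and 8 without that library, and none rose. In bulk RNA, less of a transcript per cell and fewer cells that make it cannot be told apart.

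Cytoplasmic ribosomal proteins fell less than the factors that assemble them. Their median was -0.58, 118 of 137 genes had values below 0, and 31 passed the test (22.6%, near the 18.6% background). Without glucose replicate 1 the median was -0.84 and 47 genes fell. rps2601 had 79.3 and 65.3 CPM in the starved libraries, against 262 and 386 CPM in glucose (-2.16 ± 0.34, SE; adjusted p = 0.000648). rpl3002 had 24.3 and 19.6 CPM, against 64 and 93.2 CPM, rpl1902 189 and 191 CPM, against 576 and 578 CPM, and rpl702 739 and 599.8 CPM, against 1243 and 1815 CPM. The starved and glucose values of each of these genes were clearly apart. Many ribosomal proteins have paired gene copies of near-identical sequence, so reads may be divided between them.

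Ribosomal protein promoters in fission yeast carry HomolD (CAGTCACA), a box that stands in for TATA. It was present in 76 of 137 of their windows (55.5%), against 2.49% of all coding windows and 2 of 99 ribosome biogenesis windows. rpl3002, rpl1902 and rpl702 are shown because they are the ribosomal protein genes with the largest falls in all 3 fits that carry the box, overlap no opposite-strand gene and are not largely repeated elsewhere. Each line gives the 120 bases before the annotated start with HomolD, on either strand, in capitals.
rpl3002: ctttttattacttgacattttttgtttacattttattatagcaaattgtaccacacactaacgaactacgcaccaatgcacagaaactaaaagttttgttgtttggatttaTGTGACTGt
rpl1902: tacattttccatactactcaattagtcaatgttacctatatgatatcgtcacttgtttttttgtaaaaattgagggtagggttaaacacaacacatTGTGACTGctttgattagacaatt
rpl702: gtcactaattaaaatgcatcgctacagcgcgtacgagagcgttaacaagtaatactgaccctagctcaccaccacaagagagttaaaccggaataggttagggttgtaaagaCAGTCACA
They lie at chrI:5095926-5096045 (minus strand), chrIII:400601-400720 (plus strand) and chrI:3430814-3430933 (minus strand). The box begins 9, 24 and 8 bases before the start of these genes in the deposited table (bases from RefSeq, ASM294v3). It is in reverse orientation in rpl3002 and rpl1902 and forward in rpl702.

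Translation beyond the ribosome changed less. The largest fall among translation factors was in tif471, the scaffold eIF4G, with 139 and 92.5 CPM in the starved libraries, against 292 and 204 CPM in glucose (-1.10 ± 0.34, SE; adjusted p = 0.0235). Of 28 members 3 fell and none rose, and without glucose replicate 1 only tif213, of initiation factor eIF2, was called, with 143 and 164 CPM, against 297 and 337 CPM. tef3, an elongation factor, had 4776 and 5201 CPM, against 3375 and 3948 CPM, a difference that did not pass the test (adjusted p = 0.283). Aminoacyl-tRNA synthetases fell in 12 of 36 cases and rose in 1 (SPCC576.06c, for tyrosine, at 1.01), and 9 fell and none rose without glucose replicate 1. mrs1, for arginine, had 65.1 and 74.3 CPM, against 292 and 277 CPM (-2.03 ± 0.26, SE; adjusted p = 0.000214). The lowest member, slm5, had 11.9 and 10.2 CPM, against 104.3 and 14.9 CPM, and was not called without that library.

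Genes for the synthesis of nucleotides fell in part. ura5, orotate phosphoribosyltransferase, had 45.8 and 58.3 CPM in the starved libraries, against 193 and 222 CPM in glucose (-1.997 ± 0.22, SE; adjusted p = 9.52e-05). ura3, the dihydroorotate dehydrogenase of fission yeast, had 121 and 165 CPM, against 465 and 489 CPM, and ade8, adenylosuccinate lyase, 159.6 and 115.9 CPM, against 372 and 415 CPM. Of 18 genes of purine and pyrimidine synthesis 6 fell and none rose (median -0.89), and 8 fell without glucose replicate 1.

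Amino acid synthesis did not move as one. Its 53 tested genes had a median of 0.02, with 5 higher (9.43%) and 7 lower (13.2%), both below the shares of all tested coding genes. The largest rise was in leu3, an enzyme of leucine synthesis, at 1325 and 1270 CPM in the starved libraries, against 279 and 316 CPM in glucose, and leu2 of the same pathway was at 1233 and 1042 CPM, against 356 and 375 CPM, whereas leu1 had 420.5 and 332 CPM, against 324 and 409 CPM, and its groups overlapped. ser2, the last enzyme of serine synthesis, was lower, with 24.7 and 25.7 CPM, against 88.8 and 84.4 CPM, and so was his5, with 25.1 and 27 CPM, against 78.4 and 87.9 CPM.

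Of 25 genes of fatty acid and sterol synthesis most were not called, 1 rose and 4 fell (16%, below the 18.6% of all tested coding genes), and 1 rose and 7 fell without glucose replicate 1. The rise was in ole1, the fatty acid desaturase, which had 5694 and 6098 CPM in the starved libraries, against 1209 and 1386 CPM in glucose (2.18 ± 0.29, SE; adjusted p = 0.00026). Among the falls, erg28 had 44.1 and 48.1 CPM, against 165 and 155 CPM, and erg11, the target of azole drugs, 204 and 223 CPM, against 498 and 488 CPM.

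Genes for the separation of daughter cells fell in part. eng1, the glucanase that dissolves the septum, had 19.9 and 18.8 CPM in the starved libraries, against 213 and 328 CPM in glucose (-3.80 ± 0.25, SE; adjusted p = 7.75e-06). agn1, which digests the surrounding wall, had 65 and 49.7 CPM, against 167 and 257 CPM, and cdc15, a scaffold of the contractile ring, 10.9 and 8.24 CPM, against 47.6 and 57.9 CPM. Each starved library was below each glucose library for these 3 genes. sep1, a transcription factor of the same process, rose instead, with 185 and 122 CPM, against 57.5 and 82.8 CPM, and was not called without glucose replicate 1. Of 21 genes of the list 7 fell and 1 rose, and 8 fell and none rose without glucose replicate 1.

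Among cell cycle regulators some fell and some were not called. cdc2, the central kinase, had 165 and 176 CPM in the starved libraries, against 115.98 and 138 CPM in glucose, and was not called (adjusted p = 0.064). mik1, a kinase that restrains Cdc2, had 2.1 and 1.36 CPM, against 13.9 and 19.2 CPM (-3.25 ± 0.35, SE; adjusted p = 8.85e-05). cdc25, the phosphatase that activates Cdc2, had 19.4 and 16.5 CPM, against 34.4 and 43.2 CPM, and plo1, the polo kinase, 8.07 and 7.33 CPM, against 17.7 and 20.9 CPM. res2, a subunit of the G1/S factor MBF, rose, with 66.7 and 76.8 CPM, against 13.7 and 19.1 CPM. Of 24 members 6 fell (25%, against 18.6% of all tested coding genes) and 2 rose (8.33%, against 16.2%). The list median was -0.29, and -0.41 without glucose replicate 1.

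Of 35 DNA replication genes 11 fell (31.4%, against 18.6% of all tested coding genes) and none rose. That count depended on glucose replicate 1. With that library modelled as unstranded 7 fell and 1 rose, where 745 of all 5075 tested coding genes fell. The list median was -0.51 with and without glucose replicate 1. mcm7, of the replicative helicase, had 23.4 and 21.2 CPM in the starved libraries, against 68.8 and 66.1 CPM in glucose (-1.60 ± 0.15, SE; adjusted p = 4.81e-05), and pol1, DNA polymerase alpha, 9.52 and 9.14 CPM, against 27.1 and 34 CPM. cdc18, the loader of the helicase, had 12 and 7.7 CPM, against 16.4 and 28.4 CPM. mcm3 had 35.2 and 42.3 CPM, against 297 and 69.5 CPM, and its -2.24 became -0.86 without that library. cdc22, a subunit of ribonucleotide reductase, had 250.4 and 198 CPM, against 314 and 475 CPM (adjusted p = 0.151).

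In the mating and meiosis lists 1 gene was called higher in the starved libraries in the fit to all libraries as labelled. With glucose replicate 1 modelled as unstranded, 1 mating gene and 2 meiosis genes were called higher. ste11, the master factor of sexual development, had 28.5 and 26.3 CPM in the starved libraries, against 40.0 and 67 CPM in glucose, and passed the threshold without glucose replicate 1 (-1.30) and with that library modelled as unstranded (-1.16), but not in the fit to all libraries as labelled (-0.97). ste6, an activator of Ras in the pheromone response, had 2.5 and 1.54 CPM, against 16 and 14.2 CPM, and mfm2, a pheromone gene, 9.84 and 8.42 CPM, against 23.9 and 59.7 CPM. mei2, which starts meiosis, had 13.6 and 10.05 CPM, against 15.2 and 18.5 CPM (adjusted p = 0.283). The largest fall was in map2, which encodes the other pheromone, with 2.74 and 2.44 CPM, against 87.2 and 4.41 CPM, and its -4.14 became -0.77 without glucose replicate 1. Of 28 mating genes 12 fell and 1 rose (the protease gene sxa1, at 1.02). Without glucose replicate 1 there were 9 that fell, and the single rise was in fus1, a formin of cell fusion. For 31 genes of meiotic recombination and sporulation the count of falls rested on that library. It was 14 with it and 3 without it, the median was -1.20 with it and -0.17 without it, and 27 of the 31 overlap an opposite-strand gene. The 3 were cig2 (a cyclin that also belongs to the cell cycle list), rec10 and mde4. mde2, the lowest of the list, was at 3 counts or fewer in each starved library and had 52.5 and 0.252 CPM in glucose. mei4, the factor of middle meiosis, had 14.2 and 6.07 CPM, against 4.96 and 7.31 CPM.

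The other lists gave few calls. Of 10 histone genes 2 rose (20%, against 16.2% of all tested coding genes), the histone H3 genes hht2 and hht3. hht2 had 5358 and 5878 CPM in the starved libraries, against 843 and 1463 CPM in glucose. Histone H3 genes have near-identical coding sequences, and these 2 overlap opposite-strand genes. In the proteasome list 4 of 44 rose (9.09%, against 16.2% of all tested coding genes) and 1 fell (2.27%, against 18.6%). Those that rose were led by fub2 and fub1, regulators of the PI31 family, with fub2 at 4.15 and fub1 at 2.73. The fall was in cut8, a tether of the proteasome at the nucleus, with 43.9 and 50.8 CPM, against 109 and 96.1 CPM. pac4, an assembly chaperone, had 243 and 261 CPM, against 51.1 and 64.9 CPM. In the mitochondrial ribosome 5 of 76 rose (6.58%, against 16.2%) and the list median was 0.02, and -0.02 without glucose replicate 1. The largest rise was in mrp51, with 448 and 450.4 CPM, against 81.8 and 118 CPM. Of 12 flocculin genes (adhesion proteins and their regulators) 3 fell (25%, against 18.6%), led by pfl8 at -2.33. pfl2 had 125 and 103 CPM, against 512 and 538 CPM. Of 13 phosphate and thiamine genes 2 fell (15.4%, against 18.6%), pho4 at -1.90 and thi4 at -2.33, and thi4 was at -0.24 without glucose replicate 1. pho1, an acid phosphatase, had 192 and 127.2 CPM, against 87.4 and 111 CPM (adjusted p = 0.214).

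The glucose-deficient medium shows which of these differences were also present between 0% and 0.1% glucose. Against glucose-deficient Wilmar-A, 453 coding genes were higher in the starved libraries (8.93%) and 541 were lower (10.7%). Of the 822 genes higher than in glucose, 400 were also higher than in glucose-deficient cells, 419 were not called there and 3 were lower. Of the 944 lower than in glucose, 368 were also lower there and 576 were not called. The 2 comparisons share the starved libraries. Deficient replicate 1 is an unstranded library. The counts of higher and lower genes against deficient cells were 191 and 241 without deficient replicate 2, and 277 and 281 without starved replicate 2.

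Against deficient cells, individual glucose-repressed genes were higher, lower or not called. fbp1 had 384 and 799 CPM when starved, and 343 and 757 CPM when deficient (log2 difference 0.02, adjusted p = 0.989). inv1 was higher when starved, with 4736 and 2371 CPM, against 189 and 535 CPM when deficient (3.34, adjusted p = 0.0329). ght3 and ght4 were lower when starved, ght3 with 165 and 97 CPM, against 840.0 and 1021 CPM when deficient (-2.88, adjusted p = 0.00568). Of the 19 TCA cycle genes 4 were higher in the starved libraries than in the deficient ones, with a median of 0.72, against the 8.93% of all tested coding genes that were higher. Of 32 respiratory chain genes 2 were higher.

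Autophagy genes and part of the Sty1 list were higher when glucose was wholly absent. ctt1 had 1076 and 2443 CPM when starved, against 55 and 162 CPM when deficient (3.77, adjusted p = 0.00422), and atf1 414 and 472 CPM, against 70.9 and 130.4 CPM. pka1 had 727 and 834 CPM, against 81.7 and 171 CPM. Of 18 Sty1 pathway genes 8 were higher than in deficient cells, of 25 autophagy genes 13, and of 12 cAMP pathway genes 7. None in these lists was lower. Over all tested coding genes 8.93% were higher and 10.7% lower. Other stress lists went both ways, with 5 of 28 chaperones higher and 4 lower than in deficient cells (median -0.24), and 3 of 19 genes of peroxide and superoxide defence higher and 1 lower. In glucose ctt1 had 46.9 and 59 CPM, atf1 49.4 and 76.7 CPM and pka1 79.9 and 116.3 CPM. For all 3 genes deficient replicate 2 was above both glucose values. The difference between deficient and glucose was not tested.

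Of the 99 ribosome biogenesis genes 17 were lower in the starved than in the deficient libraries and 1 was higher, where 10.7% of all tested coding genes were lower. Ribosomal proteins were lower than in deficient cells in 44 of 137 cases, and none was higher. The sharpest contrast was in mating, where 17 of 28 genes were lower in starved than in deficient cells and 1 was higher, with a median of -2.23. ste11 had 28.5 and 26.3 CPM when starved, against 98.2 and 131 CPM when deficient (-2.24, adjusted p = 0.00173), and mei2 13.6 and 10.05 CPM, against 71.8 and 80.5 CPM. For ste11 and mei2 the deficient libraries were the highest of the 3 media.

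The same response was compared in Wilmar-P, the strain selected on molasses. The test of a difference in response between Wilmar-A and Wilmar-P called 0 of 5075 coding genes (0.0%) with edgeR and 0 with DESeq2, and 174 had an unadjusted p below 0.05. This does not show that the responses are equal. Without Wilmar-A glucose replicate 2, which leaves the library with the strand problem as the only glucose library, 18 genes had a higher and 258 a lower response in Wilmar-A.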

How the data were processed

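RNA was extracted with hot phenol, depleted of ribosomal RNA and sequenced. Per the labels, the authors used cutadapt 1.9.1, TopHat2 2.1.1 and featureCounts 1.5.2 with the ASM294v2 genome, with reads assigned to all genes they overlapped and strand used where the library was stranded. The deposited table holds unnormalized counts of 7019 genes in 16 libraries. The authors' notes also name DESeq2 1.12.3, which made no value used here. Names, products and coding status came from RefSeq ASM294v3 (6861 genes matched, 5107 coding), in which the coding sequence of 5098 coding genes lay inside the gene's coordinates in the table.

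edgeR 4.0.16 (R 4.3.3) was fitted to all 16 libraries with TMM factors, its expression filter, a term for each group and a term for labelled strandedness, leaving 7 residual degrees of freedom. P-values were adjusted by Benjamini-Hochberg over all 6662 tested genes, coding and non-coding. The contrasts were starved against glucose, starved against deficient, and the difference of the starvation response between isolates. Alternatives were DESeq2 1.42.0 and its size factors, other filters, glucose replicate 1 as unstranded, no strandedness term, only the 2 groups, a replicate block, no fold threshold, opposite-strand overlaps left out, mitochondrial and ribosomal RNA genes left out, and each library left out. On 16 simulated libraries 6588 genes were past the filter, some of them changed in the starved group. There 63 of 100 genes changed by 1.5 (log2) and 96 of 100 changed by 3 were called, and 6 of the 6388 unchanged genes. The simulation held no strand effect and no mislabelled library, so it gives no error rate for falls that rest on glucose replicate 1. Gene names in the text follow a rule: the 10 highest and 10 lowest coding genes called in the 3 fits with groups apart, no gene over 50% repeated, key members of the 35 lists, and the largest rise and fall of each list with examples. The comparison, lists and rules were chosen with earlier results of these data known. List patterns for mitochondrial ribosomes and tRNA synthetases were widened on seeing the annotation, 5 wrongly matched members were removed after the fits, and 11 symbols had no match. A count of 3 or fewer was the floor, which covers counting error only. Results for 1 gene are not reported here.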

Additional observations from a re-analysis of the deposited data

How the results depend on the processing

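No named gene reversed its direction under any alternative in which it was called. Counts of rising and falling genes against glucose stayed within 1.5 times of 822 and 944, with 2 exceptions. In a fit of only the 2 groups 626 fell. Once coding genes with an opposite-strand gene were left out, 423 rose and 286 fell. These are 20% and 13.5% of the 2115 genes left, against 16.2% and 18.6% of all 5075. Leaving out 1 library gave 691 to 954 rising and 639 to 1026 falling genes. Against glucose-deficient cells the same gave 191 to 402 and 241 to 373, with 277 and 281 without starved replicate 2. For the response difference from Wilmar-P it gave 0 to 18 and 0 to 258, with 1 lower gene without Wilmar-P glucose replicate 2. With the replicate number as a block, 819 genes rose and 917 fell. The numbers do not pair the libraries by label, and the block changed no count by more than 1.5 times. The replicate differences of the 2 groups correlated at 0.107. The strand problem of glucose replicate 1 enters that value, so it cannot tell whether the libraries were paired. Over all alternatives, 100 values of single genes lost their call, 10 gained one and 89 list medians moved by more than the spread between replicates. The cause was not tested. With 2 libraries a group, and 1 of doubtful strandedness, changes under 2-fold and falls of genes with an opposite-strand partner are weakly resolved.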

Other observations

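From cat1 (SPAC869.11, chromosome I, 5489134 to 5491791) to sul2 (SPAC869.05c, 5505583 to 5508782), 7 consecutive coding genes were called higher in all 3 fits: cat1, put4, SPAC869.09, pcm2, mel1, hry1 and sul2. The run was chosen after its values were seen. Its log2 fold changes were 1.14, 1.91, 7.90, 7.45, 5.995, 10.11 and 2.14 in this order along the chromosome, so the largest change of any coding gene lies within it. mel1, a secreted alpha-galactosidase, had 64.6 and 142 CPM in the starved libraries, against 1.3 and 1.95 CPM in glucose, and sul2 had 208 and 182 CPM, against 37 and 51.7 CPM. The cationic amino acid permease gene cat1 and the proline permease gene put4 at one side of the run rose least.

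Among non-coding RNA, which the comparison of coding genes leaves out, small nucleolar RNA took 0.179% and 0.137% of counts in the starved libraries of Wilmar-A, against 0.0434% and 0.0471% in glucose. The shares were 0.153% and 0.143% in starved Wilmar-P, against 0.0324% and 0.0386% in Wilmar-P in glucose. Ribosomal RNA took 2.68% and 0.4997% of counts in starved Wilmar-A, against 1.28% and 0.350% in glucose, and the groups overlapped.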
